A study of Mus musculus with 6 samples.

Results

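YAP and its paralogue TAZ, the TEAD factors that carry them to DNA and the genes most often used to read their activity were followed gene by gene in lamin A/C knockdown E0771 cells. The set was chosen by name, with earlier results of these data known, and matched exactly to the gene symbols of the count table. It holds 10 genes: Yap1, Wwtr1 (which encodes TAZ), Tead1, Tead2, Tead3, Lats2, Ctgf, Cyr61, Ankrd1 and Amotl2. All 10 were among the 10520 genes of the count table. YAP and TAZ have no DNA-binding domain of their own. In the nucleus they bind TEAD factors and switch on genes such as Ctgf and Cyr61, and the LATS kinases of the Hippo pathway hold them in the cytoplasm by phosphorylation. The pathway is known for its response to cell shape, actin tension and the stiffness of the surroundings, which reach the nucleus through its lamina.

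E0771 is a breast adenocarcinoma line from C57BL/6 mice, and it was grown here in medium with serum. Lentivirus carried either an empty pLKO.5-puro vector (shControl, 3 libraries) or a hairpin against lamin A/C (shLmna, 3 libraries), and both groups were selected with puromycin. Populations with a single hairpin, titled shRNA4, are thus compared with populations that carry no hairpin. The labels do not say whether the libraries of a group came from separate cultures, so that p-values measure the spread between these libraries, which may be technical. Transcripts were counted by MARS-seq from their 3' ends, with a molecular barcode (UMI) on every captured molecule, so a transcript counts once whatever its length.

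The libraries held between 1846208 and 3242051 UMIs. The UMIs of Lmna, the targeted gene, which encodes the lamins A and C, numbered 2066, 2794 and 1764 in shControl and 1035, 1023 and 713 in shLmna (replicates 1, 2 and 3, an order kept below). The Log2FoldChange of shLmna over shControl was -1.20 (standard error 0.13, adjusted p = 3.55e-05), and every shLmna library lay below every shControl library after scaling.

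shControl replicate 3 and shLmna replicate 2 stood apart from the other 4 libraries by carrying transcripts of pigment cells. Of 6 melanocyte markers 5 were measured (Mlana, Pmel, Dct, Tyrp1 and Sox10). Their summed normalised count was 1832 in shControl replicate 3 and 1479 in shLmna replicate 2, and between 0.931 and 11.7 in the other 4 libraries. In all, 12 genes had at least 20 UMIs in both of these libraries and at most 2 in each of the other 4, a pattern that no gene showed for any other pair of libraries. None of the 10 genes followed here was among the 12. Each group holds 1 of the libraries with pigment cell transcripts, and the changes below are therefore also given from the remaining 2 shControl and 2 shLmna libraries.

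Of 8 epithelial markers 3 were measured, with a summed normalised count of 657.9 to 796 in shControl and 701.5 to 777.4 in shLmna, nearly all of it from Krt8. Epcam, a defining epithelial marker, had 25 to 46 UMIs in shControl and 8 to 32 in shLmna. Its normalised counts were 32.95 to 35.73 in shControl and 10.57 to 29.19 in shLmna. The Log2FoldChange was -0.90 and did not pass (adjusted p = 0.0909). Cdh1, Krt19, Cldn4, Cldn7 and Esrp1 were not among the genes analysed here. Of 8 fibroblast markers 4 were measured, and their summed count was 46.1 to 46.8 in shControl and 67.5 to 76.6 in shLmna. Pdgfrb gave most of this sum and rose (adjusted p = 0.0457), while Col1a1 and Col1a2 had at most 11 UMIs in any library. Of 6 endothelial markers only Pecam1 was measured, at 2 to 7 UMIs, and of 6 leukocyte markers Cd68 and Csf1r, with summed counts of 22.4 to 38.0 in shControl and 19.8 to 27.0 in shLmna. The part of Epcam and of the fibroblast markers in the changes below was not tested.

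Yap1 rose in shLmna cells while Tead3 and the secreted YAP targets Cyr61 and Ctgf fell. The level of Yap1 was 1.51-fold higher in shLmna, Cyr61 was 1.94-fold lower, Ctgf was 2.59-fold lower and Tead3 was 2.02-fold lower. All 4 passed edgeR's quasi-likelihood test at an adjusted p of 0.05 (Benjamini-Hochberg over the 8969 genes tested), as did 13.7% of all tested genes. In the higher direction 1 of the 10 genes passed, where 7.96% of all tested genes did, and in the lower direction 3 of the 10, where 5.78% did. The other 6 genes did not pass. By the study's stricter rule, which also asks for an absolute Log2FoldChange above 1 and a mean normalised count above 5, Tead3 and Ctgf were called, both lower. Of all tested genes 5.71% were called by it, 3.97% higher and 1.74% lower. The median Log2FoldChange of the 10 genes was -0.04, with 5 positive and 5 negative values, against 0.0033 over all tested genes. With the 2 libraries that carried pigment cell transcripts left out, Yap1, Ctgf and Cyr61 still passed, where 13.2% of 8996 tested genes did, and Tead3 did not. Cyr61 passed in each fit that left out 1 library, and the count fell to 2 genes in 3 of these fits: Cyr61 and Tead3 without shControl replicate 2, Cyr61 and Yap1 without shLmna replicate 1, and Cyr61 and Ctgf without shLmna replicate 2. Fewer of all tested genes passed in these 3 fits as well: 540 of 9174, 866 of 9181 and 757 of 9116, in the same order, against 1232 of 8969 with all 6 libraries.

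**Figure D1:**
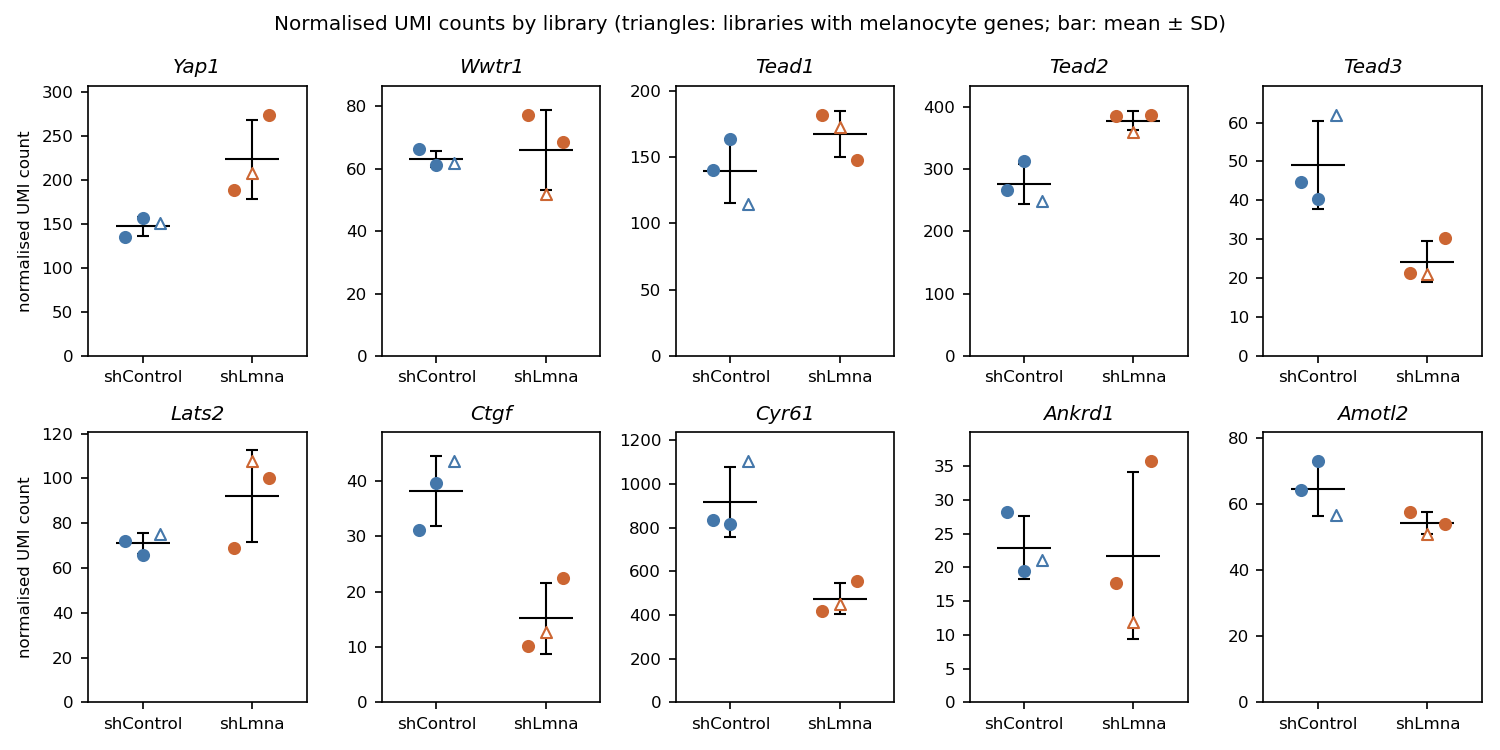
Normalised UMI counts of the 10 genes (vertical axes, from 0) in 3 shControl and 3 shLmna libraries; points are libraries, triangles are shControl replicate 3 and shLmna replicate 2, which carried pigment cell transcripts, and the bars are mean ± SD. The groups do not overlap for Yap1, Tead2, Tead3, Ctgf and Cyr61, and they overlap for the other 5 genes.

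The sequences around the start sites of these genes were searched for the DNA element that TEAD factors bind. This is the MCAT element, whose core was taken as CATTCC on either strand (GGAATG on the other) in RefSeq promoter windows of GRCm38.p6, each with 250 bases before and 50 after a start site. The windows matched 8 of the 10 genes by symbol, all but Tead1 and Ctgf. The core stood in at least 1 window of 7 of these 8 genes (Yap1, Wwtr1, Tead3, Lats2, Cyr61, Ankrd1 and Amotl2), and in at least 1 window of 16.6% of all 27025 genes with a window. Tead2 was the gene without it, and in Lats2 the core lay after the start site, not before it. The 10 genes were picked for their known link to TEAD factors, and a match of 6 letters is a description, not a bound site. Stretches of 66 bases around the core are shown 5' to 3' on the gene's own strand, with the core in capitals, for Cyr61 and Tead3, which fell, for Yap1, which rose, and for Ankrd1 and Amotl2, which carry the core and did not pass the test.
Cyr61, chr3:145650053-145650118, reverse strand: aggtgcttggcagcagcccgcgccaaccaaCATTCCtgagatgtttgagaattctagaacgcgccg
Tead3, chr17:28350952-28351017, reverse strand: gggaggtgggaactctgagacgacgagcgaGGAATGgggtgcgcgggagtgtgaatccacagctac
Yap1, chr9:8004702-8004767, reverse strand: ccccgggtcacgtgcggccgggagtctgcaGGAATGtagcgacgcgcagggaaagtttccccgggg
Ankrd1, chr19:36120019-36120084, reverse strand: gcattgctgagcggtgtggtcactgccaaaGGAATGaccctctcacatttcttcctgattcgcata
Ankrd1, chr19:36119932-36119997, reverse strand: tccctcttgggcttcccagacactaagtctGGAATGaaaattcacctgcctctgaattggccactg
Amotl2, chr9:102717709-102717774, forward strand: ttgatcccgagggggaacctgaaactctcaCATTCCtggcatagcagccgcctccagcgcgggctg
The core began 103 bases before the start site in Cyr61, 182 in Tead3, 141 in Yap1, 210 and 123 in Ankrd1 and 65 in Amotl2. The Tead3 stretch shown comes from the window of 1 of its start sites. A second window held the core 2 times as CATTCC, 123 and 114 bases before its start site. It also held the core 1 time as GGAATG, after the start site, and a further Tead3 window held none. Genes with the core thus lay on both sides of the test and in both directions.

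Yap1 (reverse strand of chromosome 9, 7931999 to 8004596 in GRCm38) encodes the coactivator YAP. Its normalised counts were 135.4, 156.1 and 150.3 in shControl and 188.1, 207.9 and 273.5 in shLmna. Every shLmna library lay above every shControl library, and shLmna replicate 3 was the highest of all. The means were 147.3 ± 10.7 and 223 ± 44.7 (SD, n = 3 each), and the Log2FoldChange was 0.59 (standard error 0.17, 95% interval 0.22 to 0.96, adjusted p = 0.0335). Without both libraries that carried pigment cell transcripts it was 0.65 (adjusted p = 0.0387). The call was lost in 4 of the 6 fits that left out 1 library. Without shControl replicate 1 the adjusted p was 0.128, without shControl replicate 2 it was 0.104, without shLmna replicate 2 it was 0.0582, and without shLmna replicate 3 it was 0.172, with a Log2FoldChange between 0.43 and 0.64 in these fits.

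Wwtr1 (reverse strand of chromosome 3, 57455649 to 57575910) encodes TAZ, which shares its TEAD partners and many targets with YAP. Its normalised counts were 66.2, 61.4 and 62.0 in shControl and 77.3, 52.0 and 68.7 in shLmna, so that shLmna held both the highest and the lowest value. The Log2FoldChange was 0.059 (95% interval -0.39 to 0.51, adjusted p = 0.891). After a correction for the GC content of the 3' end, which is 36.0% in Wwtr1, it was -0.32 (adjusted p = 0.386). No direction was therefore read for Wwtr1. The median GC content of the 3' end was 39.5% in genes called higher by the study's rule and 49.2% in those called lower. It was 47.3% in genes not called, and the cause of this difference was not tested. The ratio of Yap1 to Wwtr1 UMIs within a library, which needs no scaling, was 2.04, 2.54 and 2.43 in shControl and 2.43, 4 and 3.98 in shLmna. The log2 ratio was 0.54 higher in shLmna, which did not pass (p = 0.2, two-sided exact permutation test), and 3 libraries against 3 cannot give a p below 0.1.

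Tead2 was the most abundant of Tead1, Tead2 and Tead3 in all 6 libraries, and Tead3 the least abundant. TEAD factors bind the same DNA element, and which of them a cell uses differs between tissues. Tead2 (forward strand of chromosome 7, 45215753 to 45233644) had normalised counts of 267, 312.3 and 249.1 in shControl and 385.4, 360.3 and 387.1 in shLmna. Every shLmna library lay above every shControl library. Groups without overlap were found in 5 of the 10 genes (2 higher and 3 lower in shLmna) and in 32.5% of all tested genes (16.8% higher and 15.7% lower). The Log2FoldChange of Tead2 was 0.45 (standard error 0.14, 95% interval 0.14 to 0.75), and the adjusted p of 0.0529 lay just outside the threshold. With a correction for GC content it was 0.48 (adjusted p = 0.0246), and without both libraries that carried pigment cell transcripts 0.42 (adjusted p = 0.118). The counted 3' end of Tead2 overlaps an exon of Cd37, a gene on the opposite strand, and the sources used here do not state whether counting used the strand, so the counts of Tead2 are uncertain. Cd37 itself had 107 to 170 UMIs in the 6 libraries and a Log2FoldChange of 0.084 (adjusted p = 0.794).

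Tead3 (reverse strand of chromosome 17, 28331671 to 28350817) moved the other way. It had 46, 52 and 47 UMIs in shControl and 23 in each of the 3 shLmna libraries. The normalised counts were 44.8, 40.4 and 62.0 in shControl and 21.41, 20.98 and 30.38 in shLmna, so that every shLmna library was below every shControl library. The means were 49.05 ± 11.4 and 24.3 ± 5.31 (SD, n = 3 each), and the Log2FoldChange was -1.01 (standard error 0.27, 95% interval -1.58 to -0.44, adjusted p = 0.0204). This lay just over the study's limit of 1, and with limma-voom the Log2FoldChange was -0.99. The highest shControl value was that of replicate 3, which carried pigment cell transcripts, and without it and shLmna replicate 2 the Log2FoldChange was -0.74 (95% interval -1.38 to -0.094, adjusted p = 0.124). The adjusted p was also above the threshold without shLmna replicate 1 (0.0749) and without shLmna replicate 2 (0.0777).

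Tead1 (forward strand of chromosome 7, 112679318 to 112906807) had normalised counts of 140.3, 163.1 and 114.7 in shControl and 181.6, 172.4 and 148 in shLmna. The groups overlapped, and the Log2FoldChange of 0.26 (95% interval -0.11 to 0.63, adjusted p = 0.359) turned to -0.15 after the correction for GC content (adjusted p = 0.671), so that no direction was read. As shares of the summed UMIs of Tead1, Tead2 and Tead3, which do not depend on scaling, Tead3 made up 9.91%, 7.83% and 14.6% in shControl and 3.64%, 3.79% and 5.37% in shLmna. Tead2 made up 59.1%, 60.5% and 58.5% in shControl and 65.5%, 65.1% and 68.5% in shLmna. The share of Tead1 lay between 26.2% and 31.6% throughout. The Tead3 and Tead2 shares did not overlap between the groups. The log2 ratio of Tead3 to Tead2 was 1.47 lower and that of Tead3 to Tead1 was 1.29 lower in shLmna, each with p = 0.1, the smallest that the two-sided exact permutation test can give here. In all, 6 ratios between genes of the set were computed, all chosen after the counts were seen. Tead4, named after its values were seen, is not in the set and was left out of these shares. Its mean normalised count over all libraries was 50.2, against 36.7 for Tead3. The Log2FoldChange of Tead4 was -0.14 (95% interval -0.62 to 0.34, adjusted p = 0.728).

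**Figure D2:**
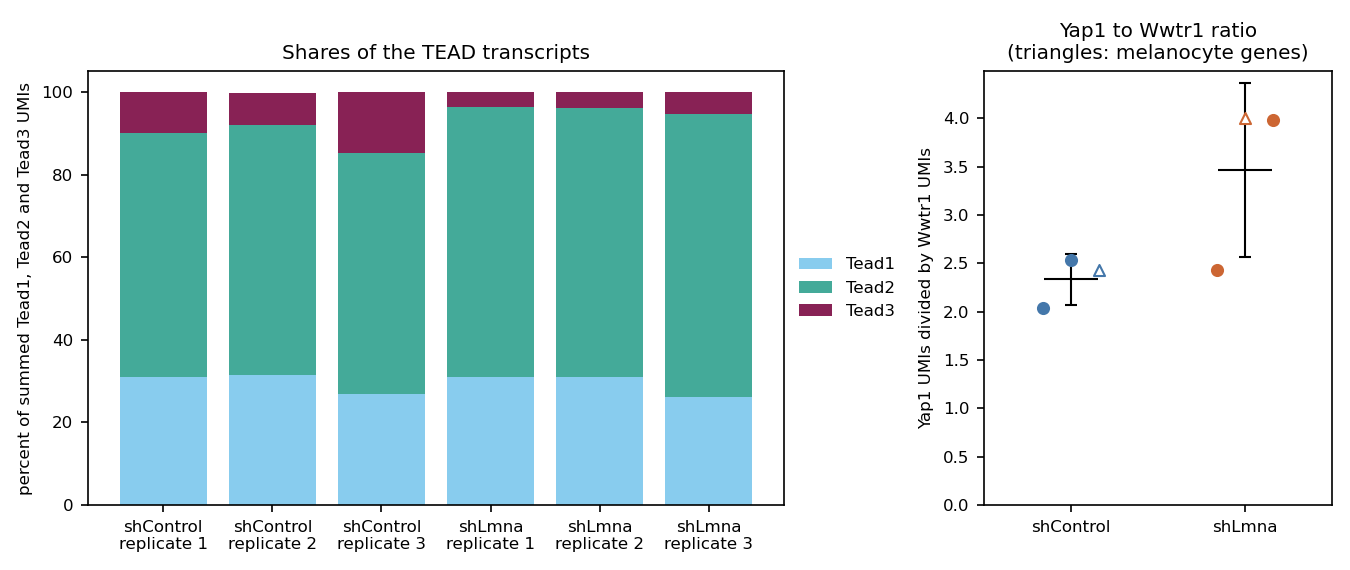
Left, Tead1, Tead2 and Tead3 as percent of their summed UMIs in each of the 6 libraries (stacked bars); right, Yap1 UMIs divided by Wwtr1 UMIs in each library, with triangles for shControl replicate 3 and shLmna replicate 2 and bars for mean ± SD. The Tead3 share is at least 7.83% in shControl and at most 5.37% in shLmna, while the Yap1 to Wwtr1 ratio of shLmna replicate 1 lies within the shControl range.

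Cyr61 (reverse strand of chromosome 3, 145646976 to 145649981), a secreted matricellular protein also named CCN1, was the most abundant of the 10 genes. It had 857, 1052 and 837 UMIs in shControl and 449, 496 and 419 in shLmna. The normalised counts were 835, 817.2 and 1103 in shControl and 418, 452.4 and 553.5 in shLmna, and the groups were well apart. Between means of 918.4 ± 160.2 and 474.6 ± 70.4 (SD, n = 3 each) the Log2FoldChange was -0.95 (standard error 0.16, 95% interval -1.30 to -0.61, adjusted p = 0.00139). It lay just inside the study's limit of 1 on the Log2FoldChange and was not called by that rule. Without both libraries that carried pigment cell transcripts the Log2FoldChange was -0.77 (adjusted p = 0.005). Cyr61 kept its direction and its adjusted p below 0.05 in each of the 18 alternatives run, with values from -1.07 to -0.73, and the highest adjusted p was 0.0117.

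Ctgf (forward strand of chromosome 10, 24595442 to 24598683), the related connective tissue growth factor or CCN2, changed most in fold among the 10 genes, on few UMIs. It had 32, 51 and 33 UMIs in shControl and 11, 14 and 17 in shLmna. The normalised counts were 31.2, 39.6 and 43.5 in shControl and 10.2, 12.8 and 22.5 in shLmna, again without overlap. Between means of 38.1 ± 6.30 and 15.2 ± 6.45 (SD, n = 3 each) the Log2FoldChange was -1.37 (standard error 0.32, 95% interval -2.05 to -0.69, adjusted p = 0.0107). Without both libraries that carried pigment cell transcripts it was -1.19 (adjusted p = 0.0404). The adjusted p was 0.067 without shControl replicate 2 and 0.0528 without shLmna replicate 1. Ctgf thus fell along with Cyr61. The log2 ratio of Ctgf to Cyr61 within a library was 0.45 lower in shLmna (p = 0.3, two-sided exact permutation test). That test cannot give a p below 0.1 here, so it does not show that both genes fell alike.

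Ankrd1 (reverse strand of chromosome 19, 36111961 to 36120099), a nuclear ankyrin-repeat protein another commonly used YAP target, did not follow them. It had 29, 25 and 16 UMIs in shControl and 19, 13 and 27 in shLmna. Normalised counts were 28.2, 19.4 and 21.1 in shControl and 17.7, 11.9 and 35.7 in shLmna, which spread over a wider range than shControl on both sides. The Log2FoldChange was -0.14 (95% interval -0.94 to 0.66, adjusted p = 0.854). At 13 to 29 UMIs a library the interval reached almost to the value of Cyr61, and the sign turned to 0.13 without both libraries that carried pigment cell transcripts.

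Lats2 and Amotl2 are both targets of YAP and restrain it, Lats2 as a Hippo kinase that phosphorylates YAP and TAZ and Amotl2 as an angiomotin that holds YAP at cell junctions and actin. Lats2 (reverse strand of chromosome 14, 57689662 to 57758388) had normalised counts of 72.1, 66.0 and 75.1 in shControl and 68.9, 107.6 and 100.4 in shLmna. shLmna replicate 1 lay within the shControl range, and the Log2FoldChange was 0.38 (95% interval -0.064 to 0.82, adjusted p = 0.254). After the GC correction it was 0.024 (adjusted p = 0.949), and no direction was read. Amotl2 (forward strand of chromosome 9, 102716672 to 102733418) had normalised counts of 64.3, 73.0 and 56.7 in shControl and 57.7, 51.1 and 54.2 in shLmna, with a Log2FoldChange of -0.26 (95% interval -0.69 to 0.17, adjusted p = 0.427). Neither gene passed the test in any of the alternatives. The lower ends of both intervals lay above the Log2FoldChange of Ctgf and of Cyr61.

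**Figure D3:**
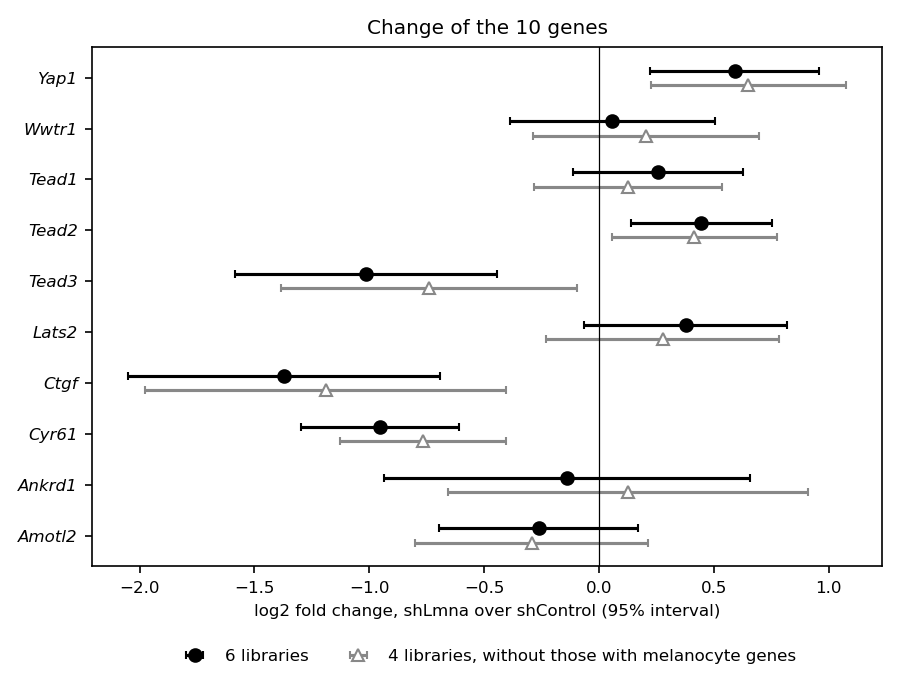
Log2FoldChange (shLmna over shControl) of the 10 genes with 95% intervals, from all 6 libraries (black circles) and from the 4 libraries without pigment cell transcripts (grey triangles). From 6 libraries the intervals of Yap1 and Tead2 lie above 0 and those of Tead3, Ctgf and Cyr61 below it, with adjusted p below 0.05 for all of these but Tead2.

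The rest of the Hippo pathway changed in single genes. Of 38 regulators in a list of kinases, adaptors, scaffolds and cofactors, 26 were tested, and 3 rose and 1 fell with an adjusted p below 0.05. This is 15.4% of those tested, against 13.7% of all tested genes, and the median Log2FoldChange was 0.10, against 0.0033. The list was chosen with earlier results of these data known, so these values are a description. Strn3, a subunit of the STRIPAK phosphatase complex that acts against the MST kinases, rose from 14, 25 and 10 UMIs to 34, 69 and 40, a Log2FoldChange of 1.63 (standard error 0.31, adjusted p = 0.00341). Stk3, which encodes the upstream kinase MST2, rose from 12, 17 and 8 UMIs to 19, 30 and 26, a Log2FoldChange of 1.11 (adjusted p = 0.0412). Tjp1, the tight junction scaffold ZO-1, rose from 17, 28 and 24 UMIs to 42, 60 and 38, a Log2FoldChange of 1.07 (adjusted p = 0.0186). Taok3, a kinase upstream of MST, went the other way, with normalised counts of 58.8 ± 4.47 in shControl and 30.45 ± 9.84 in shLmna (SD, n = 3 each) and a Log2FoldChange of -0.98 (adjusted p = 0.0185). Stk3 passed in 6 of the 17 alternatives in which it was tested, and not with DESeq2 (adjusted p = 0.0979) or limma-voom (0.0603). Stk3 and Tjp1 no longer passed after the GC correction (adjusted p = 0.167 and 0.101), and Stk3 and Taok3 no longer passed without both libraries that carried pigment cell transcripts (adjusted p = 0.118 and 0.055). Strn3 passed in all 17 alternatives in which it was tested. With 1 library left out, Taok3 lost its call without shControl replicate 2 (adjusted p = 0.1) and without shLmna replicate 2 (0.0875), Tjp1 without shControl replicates 1 and 2 and shLmna replicates 2 and 3 (0.07 to 0.102), and Stk3 without any library but shLmna replicate 1 (0.0627 to 0.17). The 3 regulators that rose had few UMIs.

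The most abundant regulators that did not pass were Ppp2r1a, the scaffold subunit of phosphatase 2A, with a Log2FoldChange of -0.44 (adjusted p = 0.196), Scrib, a polarity scaffold, with 0.41 (adjusted p = 0.105), Csnk1d, a casein kinase, with 0.25 (adjusted p = 0.322), and Nf2, which encodes merlin, with 0.10 (adjusted p = 0.723). Lats1, the partner of Lats2 and named after its values were seen, had -0.23 (95% interval -0.78 to 0.31, adjusted p = 0.593). Wtip, an adaptor of the Ajuba family, had 15 UMIs in shControl replicate 3, 9 in shLmna replicate 2, which both carried pigment cell transcripts, and 0 in the other 4 libraries, and it did not pass the filter on low counts.

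Further targets of YAP and TAZ were mostly not called. Of 17 other genes in a conserved list of such targets, 8 were tested, of which 1 rose and 1 fell. Axl, a receptor tyrosine kinase, had normalised counts of 322.5, 383.7 and 287.3 in shControl and 567, 540.8 and 364.6 in shLmna, a Log2FoldChange of 0.57 (adjusted p = 0.0464), and shLmna replicate 3 lay within the shControl range. Gadd45a, a stress-induced growth arrest gene, fell from 155.9, 147.6 and 196.4 to 90.3, 120.4 and 113.6, a Log2FoldChange of -0.62 (adjusted p = 0.034). Neither passed without both libraries that carried pigment cell transcripts (adjusted p = 0.178 and 0.0679). Axl also did not pass with limma-voom (adjusted p = 0.0555), without a low-count filter (0.0568) or with a mean count of at least 50 (0.0506). With 1 library left out, Axl lost its call in every case but shLmna replicate 3 (adjusted p = 0.0756 to 0.179), and Gadd45a lost it in all 6 cases (0.0507 to 0.136). Myof, a membrane repair protein, had a Log2FoldChange of 0.070 (95% interval -0.25 to 0.39), F3, which encodes tissue factor, -0.0043 (-0.57 to 0.56), Asap1, a GTPase-activating protein for Arf, 0.12 (-0.45 to 0.69) and Dock5, an activator of Rac, 0.13 (-0.42 to 0.67). The median over the 8 genes was 0.095, and 25.0% passed, against 13.7% of all tested genes. This list, too, was chosen with earlier results of these data known, so the share is a description.

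**Figure D4:**
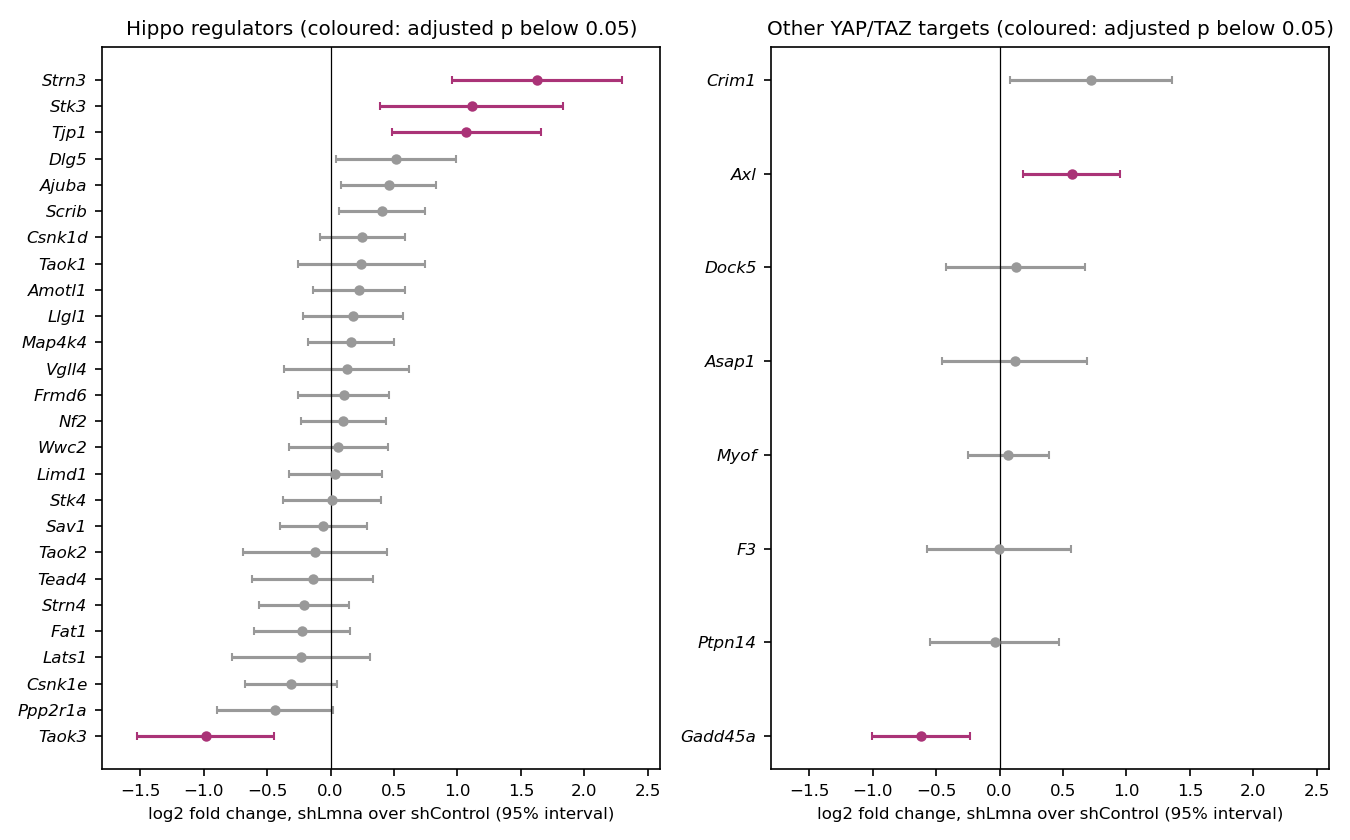
Log2FoldChange (shLmna over shControl) with 95% intervals for the 26 tested Hippo regulators (left) and the 8 tested other targets of YAP and TAZ (right); coloured points have an adjusted p below 0.05. Strn3, Stk3, Tjp1 and Axl are the coloured genes above 0, and Taok3 and Gadd45a those below it.

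Over the 6 libraries, the genes whose log2 CPM followed Yap1 most closely were Atp13a2, a lysosomal polyamine transporter, Chst12, a chondroitin sulfotransferase, and Cyb5a, a cytochrome b5, with a Pearson's r of 0.995, 0.994 and 0.988 among 5845 genes with a mean normalised count of at least 50. In all, 136 of these genes had an r above 0.9, and the points share the difference between the groups.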

How the data were processed

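RNA of 3 shControl and 3 shLmna E0771 libraries was counted by the authors, who trimmed reads with Cutadapt, mapped them to mm10 with STAR 2.4.2a and counted UMIs with a modified HTSeq over a 3' window of RefSeq genes (1000 bases within the gene, 100 beyond it). The deposited table holds these raw counts, unnormalised, for 10520 genes. A deposited table of ComBat values, whose batch is not named, was not used, and neither was the authors' comparison (mean level, fold change, p and adjusted p). Groups and replicate numbers came from the sample labels. Plate positions 13 to 15 held shControl and 16 to 18 shLmna, so that group and position cannot be told apart.

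Genes were filtered with edgeR 4.0.16 (filterByExpr, minimum count 10), scaled by TMM and compared with the quasi-likelihood test in R 4.3.3, over all 8969 tested genes. A normalised count is the count divided by the TMM-scaled library size and multiplied by the mean of these sizes, and standard errors were taken as the absolute Log2FoldChange over the square root of F. The GC correction used a loess curve (span 0.3, degree 2) per library on the last 1000 bases of GENCODE M21 transcripts (GRCm38), matched for 10468 genes. limma 3.58.1 (voom) and DESeq2 1.42.0 were alternatives, and the fits were tested on simulated counts. The changes placed in these counts were 4-fold, in genes with a mean count of at least 50. They do not cover smaller changes or genes with fewer UMIs. The members and gene lists were chosen with earlier results of these data known. Every member is named, and from the other lists each gene with an adjusted p below 0.05 and the 4 most abundant others, as well as 3 genes most like Yap1. A further gene was taken out of the regulator list and its counts and is not reported here. Replicate pairs differed by more than sampling noise (chi-square per degree of freedom from 5.11 to 8.28), and counting error alone understates the spread.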

Additional observations from a re-analysis of the deposited data

How the results depend on the processing

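Cyr61, Lmna and Amotl2 kept their direction and their side of the threshold in all 18 alternatives, of which 3, those concerning the pigment cell transcripts, were chosen after seeing the data. DESeq2, limma-voom, RLE scaling, no low-count filter and the replicate block each gave the same 4 of the 10 genes an adjusted p below 0.05 (Yap1, Tead3, Ctgf and Cyr61). Of all tested genes, 1033 with DESeq2 to 1350 with the replicate block passed in these settings.

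Requiring a mean count of at least 50 left 7 of the 10 genes and 5846 genes in all, against 8969 in the report's fit. It gave 158 genes called by the study's rule (112 higher, 46 lower), against 512. An adjusted p below 0.05 was found for 779 genes, against 1232, with 0 Hippo regulators and 1 other target. The filter removed Strn3, Stk3, Tjp1 and Taok3 before the test, so they could not be counted. A term for the libraries with pigment cell transcripts gave 1868 genes with an adjusted p below 0.05, 20.8% of those tested. Leaving those libraries out gave 2 Hippo regulators and 0 other targets, where 13.2% of all tested genes passed. Tead3 was then at -0.74 and Ankrd1 at 0.13. With the GC correction added, leaving these libraries out gave 0 other targets, where 1343 of 8961 tested genes passed. Wwtr1 was then at -0.22, Tead1 at -0.31, Tead3 at -0.72, Lats2 at -0.12 and Ankrd1 at 0.17. limma-voom and no filter each gave 1 other target, where 1242 of 8969 and 1213 of 10520 tested genes passed. The GC correction gave Wwtr1 -0.32 and Tead1 -0.15. With the replicate block added they were -0.34 and -0.14, with 2 Hippo regulators, where 1396 of 8933 tested genes passed. Tead2 passed with upper-quartile scaling (0.46), the mean count of at least 50 (0.46), the GC correction (0.48, also with the block) and the term (0.45). The cause of these shifts was not tested.

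Leaving out 1 library gave 346 to 654 genes called by the study's rule, 254 to 462 higher and 92 to 192 lower, and 540 to 1580 with an adjusted p below 0.05. The lowest count came without shControl replicate 2 and the highest without shControl replicate 3. Of the 10 genes 2 to 4 passed, of the Hippo regulators 1 to 5 and of the other targets 0 to 1. Over all tested genes, 540 of 9174 passed without shControl replicate 2 and 1580 of 9176 without shControl replicate 3, so the background moved as well. Log2FoldChange ranged from 0.43 to 0.69 for Yap1, -0.10 to 0.22 for Wwtr1, -1.18 to -0.84 for Tead3, -1.71 to -1.16 for Ctgf and -0.63 to 0.17 for Ankrd1. Wwtr1 was negative without shLmna replicate 1, and Ankrd1 was positive without shControl replicate 1 and without shLmna replicate 2.

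Deviations from the group means correlated between same-numbered libraries at 0.35, -0.11 and 0.0052 for replicates 1, 2 and 3. Replicate 1 of shControl was most like replicate 1 of shLmna, while replicates 2 and 3 did not match their own number best. The labels do not say what a shared number stands for. The replicate block called 518 genes, 498 of them shared with the fit without it. Ctgf, Ankrd1 and Tead3 rest on the fewest UMIs of the 10 genes, which limits the precision of their values.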
